A study of Mus musculus with 6 samples.

Results

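Nnt and 9 further genes of mitochondrial redox defence were followed in mouse tibialis anterior, a fast muscle of the shin. The 10 genes are Nnt, Idh2, Me3, Txn2, Txnrd2, Prdx3, Prdx5, Sod2, Gpx1 and Glrx2. They occupy 11 of the 54393 rows of the table, because Nnt is listed as 2 entries, and all 11 passed the filter of a mean of at least 10 normalized counts. The genes were chosen by their role in NADPH supply and peroxide removal with the WT and Dock3 KO values of these same samples known, so the difference between genotypes is given for them as a description, without a test. Muscles came from adult mice of 2 genotypes, with n = 3 WT and n = 3 Dock3 KO samples, and the Dock3 KO mice lack Dock3, a guanine nucleotide exchange factor for the small GTPase Rac. The sample titles call the WT animals C57. The substrain, the design of the Dock3 KO allele, the genetic background of that line and the sex of the mice are not given in the sources used here. Nothing in the labels says whether 2 muscles came from 1 animal, so the errors cover the spread between these samples, which may be partly technical.

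Mitochondria make superoxide as a by-product of respiration. Sod2 turns it into hydrogen peroxide, which peroxiredoxins and glutathione peroxidases reduce to water. The thiols that these enzymes consume are regenerated with NADPH, through thioredoxin and its reductase or through glutathione. Inside the organelle that NADPH comes from the transhydrogenase Nnt, which uses the proton gradient to pass hydride from NADH to NADP+, and from the dehydrogenases Idh2 and Me3. Nnt is also known for a difference between mouse substrains: C57BL/6J, the strain of the reference genome, carries a deletion of several coding exons, whereas C57BL/6N carries the intact gene. The reference and its annotated transcripts therefore lack those exons.

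GENCODE M21 on GRCm38 places both Nnt entries on the minus strand of chromosome 13. ENSMUSG00000025453 runs from 119335448 to 119408997 and has 5 transcripts, of which Nnt-202 is the longest, with 17 exons and 3464 bases. ENSMUSG00000116207 runs from 119335528 to 119408952 and has a single transcript, Nnt-206, with 17 exons and 3339 bases. Nnt-206 is contained letter for letter in Nnt-202, and all 3309 of its words of 31 bases also occur in the other entry, while none occur in a transcript of another gene. The entry ENSMUSG00000025453 holds a further 3710 words that Nnt-206 does not. No read can thus belong to ENSMUSG00000116207 alone, and the split of Nnt between its rows depends on how reads were assigned. For that reason the sum of both rows is used as the level of Nnt, with the rows beside it.

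The junctions that show this are printed 5′ to 3′ in transcript direction, from the GENCODE M21 transcripts, with the upstream exon in lower case and the downstream exon in capitals. All 4 lie within coding exons. The junction of exons 6 and 7 is shown because the C57BL/6J deletion is known to fall in the intron between them, which is 4715 bases long in the reference. It joins chr13:119386579-119386608 to chr13:119381834-119381863 and reads the same in both entries.
Nnt-206 exons 6 and 7: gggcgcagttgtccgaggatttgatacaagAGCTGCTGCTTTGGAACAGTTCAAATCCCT
Nnt-202 exons 6 and 7: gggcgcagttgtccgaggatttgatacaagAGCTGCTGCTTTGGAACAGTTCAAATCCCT
The next junction is shown because transcripts differ there. A read over the exon-skipping form fits ENSMUSG00000025453 alone, whereas a read over the form of Nnt-206 fits both entries. Nnt-206 and Nnt-202 continue into exon 8, whereas Nnt-201, also of ENSMUSG00000025453, skips exons 8 and 9 (146 and 196 bases). The shared upstream side is chr13:119381676-119381705, and the downstream sides are chr13:119374745-119374774 for Nnt-206 and chr13:119370116-119370145 for Nnt-201.
Nnt-206 exons 7 and 8: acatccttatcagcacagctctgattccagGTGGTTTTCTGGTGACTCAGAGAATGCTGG
Nnt-201 exons 7 and 8: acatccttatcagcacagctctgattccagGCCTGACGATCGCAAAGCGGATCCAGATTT
Values per gene hold no reading of single junctions, so neither these junctions nor the Nnt allele of the mice was measured. The Nnt allele and the Dock3 genotype cannot be told apart here.

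The sums of normalized counts, the values of all genes added per sample, lay between 23520223 and 26507063 in WT and between 25148575 and 33393950 in Dock3 KO. Dock3 itself was listed at 169, 161 and 118 in the WT muscles, against 22.4, 1.78 and 1.54 in those of Dock3 KO, lower in every Dock3 KO sample (limma adjusted p 0.0140). Dock3 KO replicates 1 and 2 stood apart from the other samples: the noncoding RNA gene Gm42418 and Lars2 together held 17.9% and 20.3% of their normalized counts, where the remaining 4 samples had 3.00% to 3.64%. Values of the members without both libraries are therefore given as well, and these rest on Dock3 KO replicate 3 alone. Of 16031 genes tested with limma and Benjamini-Hochberg adjustment, 165 were called at an adjusted p under 0.05, which is 1.03%. The called genes split into 71 with higher and 94 with lower values in Dock3 KO, but 41 and 136 when samples were rescaled to the same total, and 52 and 111 when they were so rescaled without Gm42418 and Lars2. Those rescalings moved the median of all genes from -0.01 to -0.28 and -0.11 on the log2 scale, so differences are read against that median. In a bulk muscle sample, fewer cells of a type and less RNA per cell cannot be told apart.

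Nnt was far lower in Dock3 KO muscle. Summed over both entries it stood at 1301, 1562 and 1241 normalized counts in the WT muscles (replicates 1, 3 and 4), against 357, 425 and 352 in the Dock3 KO muscles (replicates 1, 2 and 3). The lowest WT sample lay well above the highest Dock3 KO sample, and the 3 Dock3 KO samples were at 26.1%, 31.03% and 25.7% of the WT mean. Averaged, WT held 1368 ± 171 and Dock3 KO 378 ± 40.7 (SD, n = 3 each), a level 3.62-fold lower. On the log2(normalized count + 1) scale used throughout, the difference was -1.85 (standard error 0.15, 95% interval -2.18 to -1.52). Dock3 KO replicate 3, which does not carry the large Gm42418 share, was the lowest of the 6 samples. Read against the median of all genes, the difference was -1.85 on the deposited scale and -1.85 under quantile normalization. Both rescalings multiply each sample by 1 factor, which moves a gene and the median almost alike. They could therefore not change this value.

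The Nnt entries did not differ alike. ENSMUSG00000116207 stood at 1130.4, 1410.3 and 1139.6 normalized counts in the WT muscles, against 242, 344 and 194 in those of Dock3 KO, with means of 1227 ± 159 and 260.1 ± 76.3 (SD, n = 3 each). Its log2 difference was -2.27 (standard error 0.21), and the groups did not overlap. ENSMUSG00000025453 stood at 171, 152 and 102 in the WT muscles, against 114, 80.8 and 157 in those of Dock3 KO, and here the groups overlapped, with a log2 difference of -0.28 and an interval from -0.94 to 0.37. The share of Nnt given to ENSMUSG00000025453 was 13.1%, 9.73% and 8.19% in WT and 32.1%, 19.0% and 44.8% in Dock3 KO. Every Dock3 KO sample gave this entry a larger share than every WT sample. Without Dock3 KO replicates 1 and 2 together, which leaves replicate 3 alone, the log2 difference was -2.64 for ENSMUSG00000116207 and 0.19 for ENSMUSG00000025453.

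**Figure D1:**
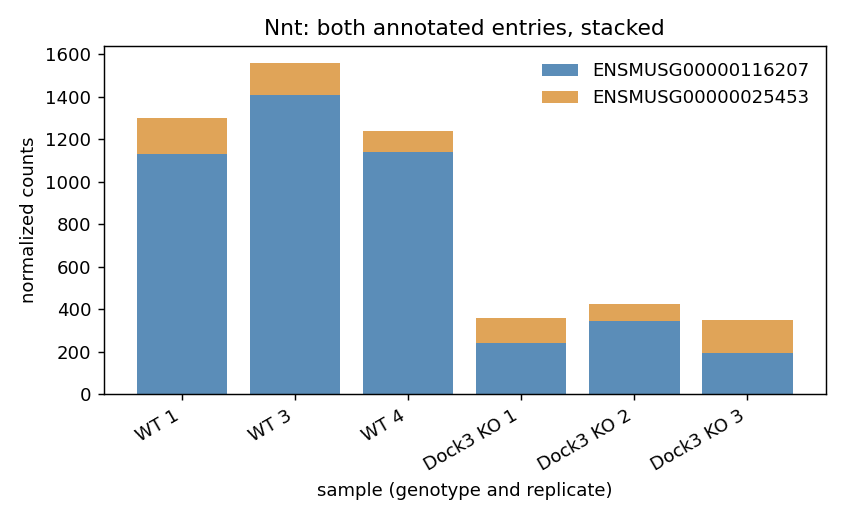
Normalized counts of Nnt in each of the 6 samples, with the bar split into both annotated entries. The summed bars lie between 1241 and 1562 in WT and between 352 and 425 in Dock3 KO, and the difference lies mainly in ENSMUSG00000116207.

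Of the 11 rows, 1 was called (ENSMUSG00000116207), beside 1.03% of all genes tested. Nothing is read from that count, since the comparison was known when the genes were chosen. The groups did not overlap in 2 of the 11 rows, ENSMUSG00000116207 and Idh2, beside 16.2% of all genes tested. The 9 members other than Nnt had log2 differences from -0.30 for Glrx2 to 0.54 for Idh2, with a median of 0.03. For 7 of these 9 the whole 95% interval lay within a 1.5-fold change in either direction. Leaving out Dock3 KO replicates 1 and 2 together leaves a lone sample, replicate 3, to stand for that genotype. The log2 difference was then -1.95 for summed Nnt, 0.57 for Idh2 and 0.15 for Txn2. It was then -0.06 for Me3, -0.17 for Gpx1 and -0.51 for Glrx2. The signs of Txnrd2 (-0.19), Sod2 (-0.04) and Prdx5 (-0.0038) turned from positive to negative with this lone sample. The plot of all members by sample shows Nnt apart from the rest.

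**Figure D2:**
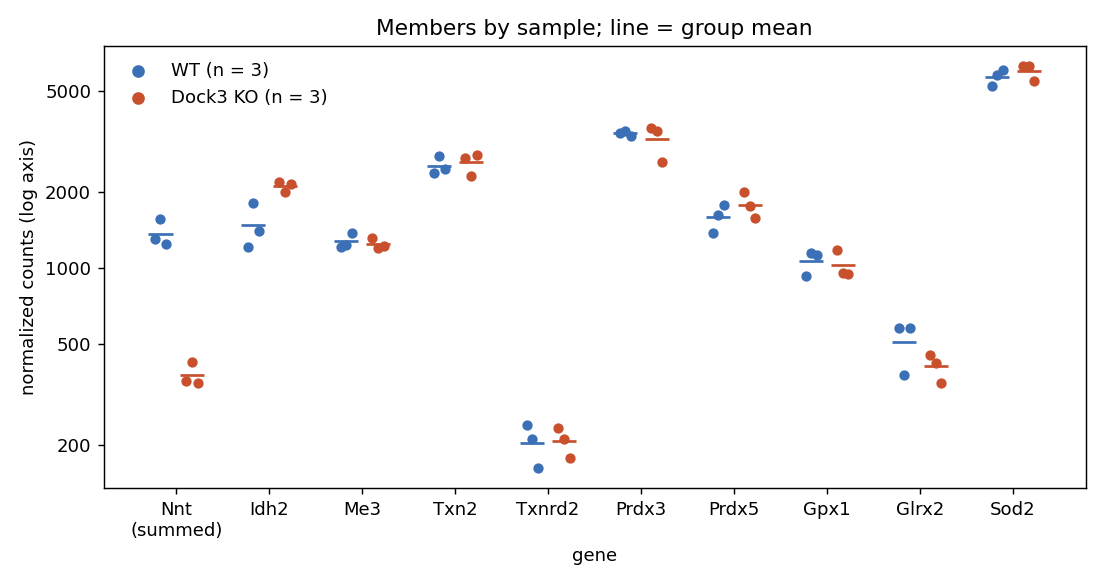
Normalized counts (log axis) of the 10 genes, 1 point per sample, WT on the left and Dock3 KO on the right of each pair, with a line at each group mean. Nnt, both entries summed, is separated by a wide gap and Idh2 by a narrow one, and the points of the other 8 genes overlap.

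Among the members, the other suppliers of mitochondrial NADPH, Idh2 and Me3, did not follow Nnt. Idh2, the NADP-dependent isocitrate dehydrogenase of the matrix (chromosome 7, 80094846 to 80115392, minus strand), stood at 1212, 1809 and 1406 normalized counts in the WT muscles, against 2179, 2001 and 2155 in those of Dock3 KO. All Dock3 KO samples were above all WT samples, although the gap to WT replicate 3 was small. The means were 1476 ± 304 and 2112 ± 96.3 (SD, n = 3 each), a log2 difference of 0.54 (standard error 0.16, interval 0.19 to 0.88). The difference was 0.26 after rescaling to the same total, which is 0.54 above the median of all genes under that scaling. Such rescaling leaves the distance to the median as it was. Under quantile normalization Idh2 lay 0.50 above the median. Idh2 was not called in the fit over all genes. The ratio of summed Nnt to Idh2 normalized counts, compared within samples only, was 1.07, 0.86 and 0.88 in WT and 0.16, 0.21 and 0.16 in Dock3 KO.

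Me3, the NADP-dependent malic enzyme of mitochondria (chromosome 7, 89632392 to 89854359, plus strand), held almost the same level in every sample. It stood at 1214, 1237 and 1373 normalized counts in the WT muscles, against 1312, 1202 and 1224 in those of Dock3 KO. Its log2 difference of -0.03 had an interval from -0.30 to 0.24, and its coefficients of variation of 6.74% in WT and 4.68% in Dock3 KO were small among the members. Idh2 overlaps 1 other annotated gene on its strand and Me3 overlaps 3, of which 1 is on its strand.

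Next come the genes that spend this NADPH through thioredoxin. Txn2, the mitochondrial thioredoxin that hands electrons to peroxiredoxins (chromosome 15, 77915047 to 77929006, minus strand), stood at 2373, 2759 and 2456 normalized counts in the WT muscles, against 2723, 2311 and 2806 in those of Dock3 KO. Its groups overlapped, with a log2 difference of 0.05 and an interval from -0.24 to 0.33. Txnrd2, the selenoenzyme that reduces Txn2 with NADPH (chromosome 16, 18426384 to 18479073, plus strand), was the scarcest member per length. It stood at 239, 212 and 162 in the WT muscles, against 235, 210.5 and 177 in those of Dock3 KO, a log2 difference of 0.03 with an interval from -0.43 to 0.49. WT replicate 4 and Dock3 KO replicate 3 were the low samples of their groups.

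The peroxidases showed overlapping groups as well. Prdx3, the peroxiredoxin found only in mitochondria (chromosome 19, 60864051 to 60874556, minus strand), stood at 3408, 3464 and 3328 normalized counts in the WT muscles, against 3576, 3471 and 2621 in those of Dock3 KO. Its coefficient of variation was 2.005% in WT and 16.2% in Dock3 KO, where replicate 3 alone was low. The log2 difference was -0.09 with all samples and -0.375 without Dock3 KO replicates 1 and 2, which leaves that low replicate alone. Prdx5, a peroxiredoxin of mitochondria, peroxisomes and cytosol (chromosome 19, 6906697 to 6910106, minus strand, overlapped by Trmt112 on the other strand), stood at 1380.2, 1626 and 1779 in the WT muscles, against 1989, 1752 and 1582 in those of Dock3 KO. Its log2 difference was 0.15 with an interval from -0.17 to 0.48.

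Gpx1, the selenium-dependent glutathione peroxidase of cytosol and mitochondria (chromosome 9, 108338903 to 108340343, plus strand), stood at 933, 1148 and 1122 normalized counts in the WT muscles, against 1173, 956 and 945 in those of Dock3 KO. Both groups spanned almost the same range, and the log2 difference was -0.06 with an interval from -0.39 to 0.26. Gpx1 is the member on the chromosome of Dock3, with its start 1107 kb from the end of Dock3. Sod2, the manganese superoxide dismutase of the matrix (chromosome 17, 13006846 to 13040063, plus strand), stood at 5221, 5786 and 6033 in the WT muscles, against 6275, 6255 and 5499 in those of Dock3 KO. Its log2 difference was 0.08 with an interval from -0.19 to 0.36.

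Glrx2, a glutaredoxin that removes glutathione from protein thiols (chromosome 1, 143716338 to 143749676, plus strand), had the most negative difference of the 9 genes. It stood at 579, 379 and 578 normalized counts in the WT muscles, against 455, 422 and 352 in those of Dock3 KO, so that WT replicate 3 lay inside the Dock3 KO range. The log2 difference was -0.30 (standard error 0.20, interval -0.74 to 0.14), which reaches past 1.5-fold on the low side. Near-identical copies make the value of Glrx2 uncertain: 11 annotated pseudogenes of 97.8% to 99.4% identity over their aligned bases were found, the most abundant being Gm48494 and Gm47191, both on chromosome 13. With the values of these copies added, the log2 difference of Glrx2 was -0.20. The only other member with a match was Sod2, to Gm11032 over 102 aligned bases.

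**Figure D3:**
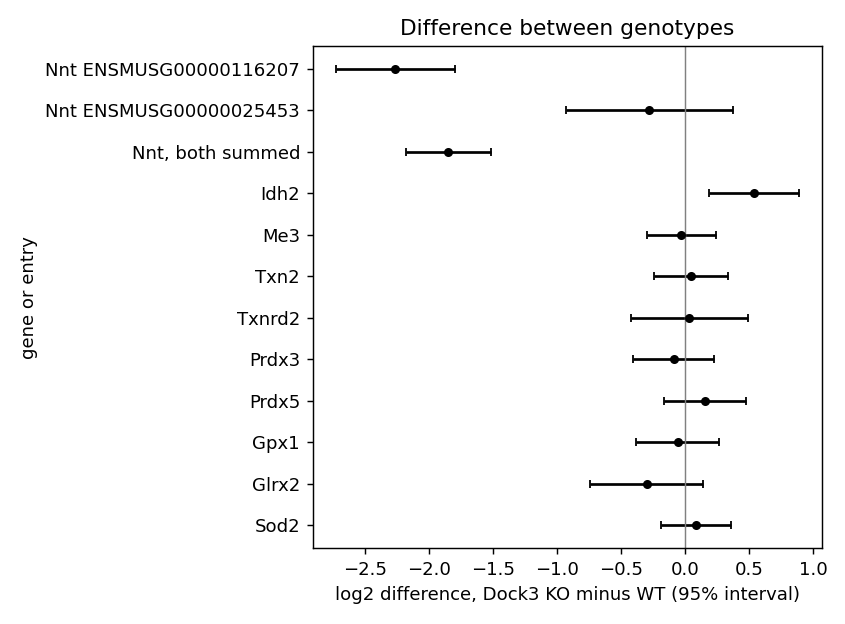
Log2 difference (Dock3 KO minus WT, on log2 of normalized count + 1) of each member and of both Nnt entries, with 95% intervals from limma over n = 3 samples per genotype. The interval of summed Nnt runs from -2.18 to -1.52 and that of Idh2 from 0.19 to 0.88. The intervals are a description and not a test, since the genes were chosen with these values known.

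Levels were compared between genes as normalized counts per kilobase of the longest annotated transcript, a scale that depends on that choice of transcript. In WT the order was Prdx3 (2300.4 ± 46.1), Txn2 (1234 ± 99.2), Gpx1 (996 ± 109.6), Sod2 (969 ± 71.0), Prdx5 (874 ± 110.2), Idh2 (824 ± 170.1), summed Nnt (395 ± 49.3), Me3 (284 ± 19.2), Glrx2 (131 ± 29.6) and Txnrd2 (71.1 ± 13.6), each as mean ± SD over n = 3. The ranges of Gpx1, Sod2, Prdx5 and Idh2 overlapped, so these 4 cannot be ordered, and the other neighbours in this order did not overlap. In Dock3 KO, Nnt stood at 109 ± 11.7 per kilobase (SD, n = 3), below Me3 at 278 ± 13.01 and within the range of Glrx2 at 105 ± 13.4. Idh2 stood at 1179.7 ± 53.8, overlapping the range of Txn2 and above every Sod2, Prdx5 and Gpx1 sample. Nnt thus lay above Me3 in every WT sample and below it in every Dock3 KO sample.

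Beyond the members, 94 further genes of redox metabolism were grouped in 8 lists, of which 93 were tested. None of the 93 was called over all genes (limma with Benjamini-Hochberg adjustment), beside 1.03% of all genes tested, and 15 (16.1%) had an unadjusted p under 0.05, beside 10.5% of all genes tested. The median log2 difference was 0.00, beside -0.01 over all genes tested, with 46 genes above 0 and 47 below. The groups did not overlap in 24 of the 93 (25.8%), 16 higher and 8 lower in Dock3 KO on the deposited scale, beside 16.2% of all genes tested. These genes share pathways and samples and are not independent of each other. The most negative log2 difference among them was -1.12, for Ncf4, a subunit of the phagocyte NADPH oxidase that is named because its value was seen. The lists do not hold every redox gene. Mgst1, a glutathione transferase given below, is on none of the 8 lists and had a log2 difference of -1.60.

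**Figure D4:**
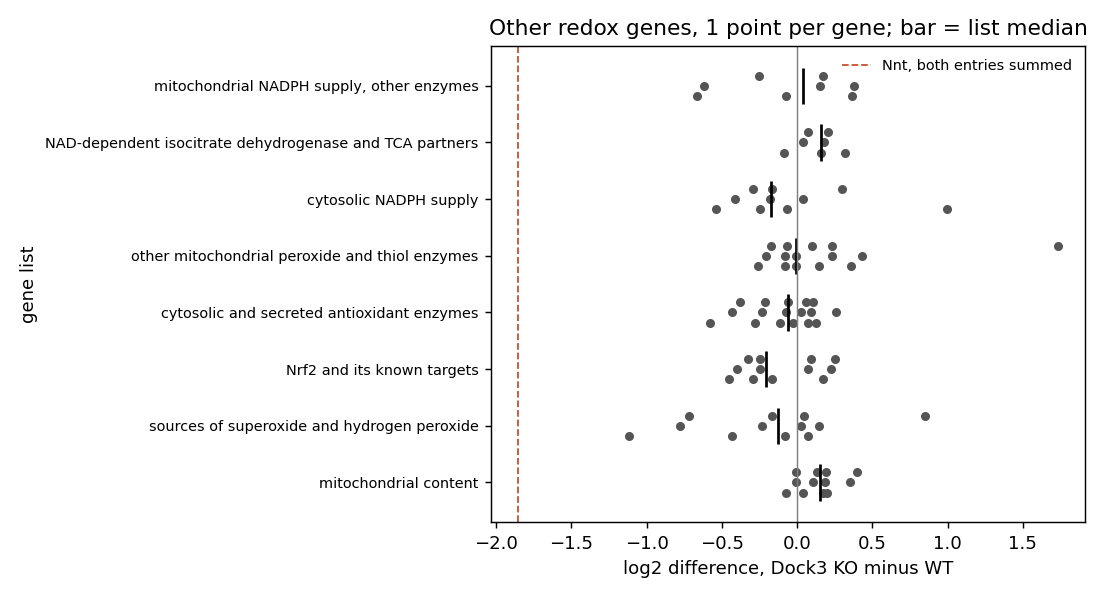
Log2 difference (Dock3 KO minus WT) of the 93 other redox genes tested, by list, 1 point per gene, with a bar at each list median and a dashed line at the value of summed Nnt. List medians lie between -0.20 and 0.16, and the point farthest to the right is Ucp3 at 1.74.

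Among other enzymes tied to mitochondrial NADPH, 8 were tested and none was called. Their log2 differences ranged from -0.67 to 0.38, with 4 above 0, 4 below and a median of 0.04. Nadk2, the mitochondrial NAD kinase that makes NADP+, stood at 569, 511 and 552 normalized counts in the WT muscles, against 694, 778 and 634 in those of Dock3 KO. Its groups did not overlap, and its log2 difference of 0.36 had a limma adjusted p of 0.373. Aldh1l2, a mitochondrial folate enzyme that yields NADPH, had means of 131 ± 22.5 and 86.4 ± 23.49 (SD, n = 3 each) and a limma adjusted p of 0.445. Of the 7 NAD-dependent isocitrate dehydrogenase and tricarboxylic acid cycle genes, none was called and 4 did not overlap, all 4 higher in Dock3 KO on the deposited scale. That is 57.1% of the list, beside 16.2% of all genes tested, and the list median was 0.16. Idh3a, the catalytic subunit of the NAD-dependent enzyme, had means of 8489.8 ± 505 and 9787 ± 293 (SD, n = 3 each). Its log2 difference of 0.21, with a limma adjusted p of 0.615, was -0.07 after rescaling to the same total. Ogdh, a subunit of the 2-oxoglutarate dehydrogenase complex, had a log2 difference of 0.32 with a limma adjusted p of 0.457.

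Outside mitochondria, 10 genes of NADPH supply were tested, cytosolic apart from H6pd, and none was called. Idh1, the cytosolic counterpart of Idh2, stood at 594, 768 and 641 normalized counts in the WT muscles, against 560.0, 453 and 486 in those of Dock3 KO. Its groups did not overlap, and the log2 difference of -0.41 had a limma adjusted p of 0.354. The values of Idh1 were thus lower where those of Idh2 were higher, without a call for either. H6pd, which makes NADPH in the endoplasmic reticulum, had a log2 difference of 0.30 and a limma adjusted p of 0.432.

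The list of other mitochondrial peroxide and thiol enzymes held 15 genes, not all of them confined to mitochondria or acting on peroxide or thiols. None of the 15 was called, and the list median was 0.00. Ucp3, an uncoupling protein of muscle mitochondria, came closest. It stood at 552, 333 and 478 normalized counts in the WT muscles, against 809, 2942 and 1378 in those of Dock3 KO, with no overlap but a wide spread in Dock3 KO. Its log2 difference of 1.74 (standard error 0.39) had a limma adjusted p of 0.0892. The limma adjusted p of Ucp3 ranged from 0.0169 without Dock3 KO replicate 1 to 0.644 with Gm42418 as a covariate, and was 0.139 without Dock3 KO replicate 2, where the log2 difference was 1.25. Msrb3, a methionine sulfoxide reductase, had a log2 difference of 0.23 (limma adjusted p 0.576) that was -0.05 after rescaling to the same total.

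Of the 17 cytosolic and secreted antioxidant genes none was called, and 3 did not overlap (17.6%, beside 16.2% of all genes tested), all 3 lower in Dock3 KO. That share is near the background. Prdx2, an abundant cytosolic peroxiredoxin, stood at 1797, 1894 and 1887 normalized counts in the WT muscles, against 1638, 1295 and 1371 in those of Dock3 KO, a log2 difference of -0.38 with a limma adjusted p of 0.304. Glrx, the cytosolic counterpart of Glrx2, had means of 773 ± 53.7 and 576 ± 95.7 (SD, n = 3 each) and a limma adjusted p of 0.324. For Nrf2, the transcription factor of the antioxidant response (gene Nfe2l2), and its known targets, 12 genes were tested, none was called, and the list median was -0.20. Gstm1, a glutathione transferase, had means of 3056 ± 272 and 2481 ± 36.5 (SD, n = 3 each) and a limma adjusted p of 0.408. Abcc1, an exporter of glutathione conjugates, had a log2 difference of -0.40 and a limma adjusted p of 0.484.

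Markers of fibre type and of other cells were read beside these values. The 7 fast fibre markers summed to 1233505 to 1348363 normalized counts in WT and 1236015 to 1403251 in Dock3 KO, and the slow fibre, erythrocyte, adipocyte, endothelial and nerve sums overlapped too. Macrophage markers (7 genes) summed to 5642 to 6262 in WT and 4789.8 to 5508 in Dock3 KO, and fibroblast markers (6 genes) to 28485 to 30207 and 31123 to 37389, without overlap. The 12 genes of the mitochondrial content list summed to 87976 to 95035 in WT and 97545 to 105593 in Dock3 KO. On the deposited scale the mitochondrial sum was thus higher where Nnt was lower. As shares of each sample's total without Gm42418 and Lars2, the mitochondrial sums (0.364% to 0.397% in WT, 0.372% to 0.403% in Dock3 KO) and the fibroblast sums (0.117% to 0.129%, 0.123% to 0.136%) overlapped, and the macrophage sums (0.0244% to 0.0252%, 0.0185% to 0.0201%) did not. Of the 7 macrophage markers none was called, and 6 had log2 differences below 0 and 1 above, with a median of -0.26. Taken singly, 2 of these 7 did not overlap (28.6%, beside 16.2% of all genes tested). The fibroblast markers did not move as 1 group: 3 of the 6 had log2 differences above 0 and 3 below, with a median of -0.06. The collagen genes Col1a1 (1.38) and Col3a1 (0.87) were called higher (limma adjusted p 0.0228 and 0.0168). Pdgfra was at 0.15, and Dcn (-0.28), Pi16 (-0.47) and Lum (-0.48) had negative differences without a call. The higher fibroblast sum on the deposited scale thus came with both collagen genes, while Dcn averaged 18572 ± 1983 in WT muscle and 15522 ± 3360.3 in Dock3 KO muscle (SD, n = 3 each). No marker tested was listed at 0 in a sample. The part of any of these sums in the Nnt values was not tested.

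The genes around Nnt were read in the same way. Within 1 Mb of Nnt on chromosome 13, 10 other genes were tested. None was called (limma with Benjamini-Hochberg adjustment), beside 1.03% of all genes tested, and 2 had an unadjusted p under 0.05, beside 10.5%. Paip1, a translation factor that is the nearest of them, starting at 119428601, averaged 1049 ± 119 in WT muscle and 1003 ± 102 in Dock3 KO muscle (SD, n = 3 each). Its log2 difference was -0.06 with an interval from -0.38 to 0.25. The groups did not overlap in 3 of the 10 neighbours, beside 16.2% of all genes tested. These were Fgf10, Nim1k at a log2 difference of -0.61 and Zfp131 with 0.40. Fgf10, a growth factor gene, stood at 13.6, 15.3 and 15.6 normalized counts in the WT muscles, against 4.10, 4.45 and 9.39 in those of Dock3 KO. Its means were 14.8 in WT and 5.98 in Dock3 KO, so it passed the filter of a mean of at least 10 only through its WT values. Nothing is read from its lack of overlap. These neighbours were read after the values of Nnt were seen.

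The 5 protein-coding genes whose pattern over the 6 samples was most like that of ENSMUSG00000116207 were found by Pearson's r of the log2 values, among 13435 genes. They were Ube2cbp (r = 0.998), Actr3b (0.996), Acvr1b (0.993), Cyp4f39 (0.992) and Mgst1 (0.987), and r was above 0.9 for 227 genes. The Nnt entry with the higher mean was used here, not the sum, so this order depends partly on how reads were assigned. A ranking against the sum was not made. With 2 groups of 3 samples, r mostly reflects the gap between the genotypes, so it is a description over 6 samples that share that gap. Their levels differ in size: Mgst1 stood at 1087, 1327 and 1409 normalized counts in the WT muscles, against 397, 485 and 380.1 in those of Dock3 KO. Actr3b averaged 539 ± 32.5 in WT muscle and 208 ± 24.4 in Dock3 KO muscle (SD, n = 3 each). Acvr1b, a receptor for activins, had a small difference of -0.35 on the log2 scale at a very even WT level of 1206 ± 4.999 (SD, n = 3).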

How the data were processed

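Ribosomal RNA was removed from the RNA of 6 muscles before stranded library preparation and paired-end sequencing, per the labels' protocols. The authors deposited normalized counts per gene, treated here as a signal, since they are fractional and their sums vary between samples. The submitters' processing notes name Trim Galore 0.4.5, Salmon 0.12.0, DESeq2 1.22.1, R 3.5.3, mm10 and GRCm38, without roles. The use of strand and the treatment of reads that match several genes are not given in the sources used here. Taking the commonest low value (0.775 to 1.52, by sample) as 1 read, 16.4% to 24.4% of values below 20 were whole multiples of it (tolerance 0.01), so whole reads were not recovered, count tests were not run and depth limits are not given.

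All 54393 identifiers were found in GENCODE M21, whose symbols and 1-based positions are used. Values were taken as log2(normalized count + 1), which understates changes of low genes. Genes with a mean of at least 10 were compared over 6 samples with limma 3.58.1 in R 4.3.3 (prior variance following mean expression, no covariates), adjusted by Benjamini-Hochberg over all genes tested, with a threshold of 0.05. This fit was first tested on simulated data. Both Nnt rows were added before log2 and refitted as 1 row. Copies had at least 95% identity (blastn 2.17.0) over 50% of the shorter transcript and 100 bases. Groups follow the genotype labels.

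The genes, lists and tests were chosen with earlier results of these data known. Named are all members, Dock3, the called genes or the 2 with the smallest p of each list, the 5 genes most like Nnt, copies, overlapping genes and, added later, neighbours of Nnt. Alternatives were pseudocounts of 0.1 and 10, no filter or a minimum mean of 50, 3 scalings, 2 other prior variances, a replicate block, a Gm42418 covariate, summed copies and left-out samples. The numbers 1 and 3 occur in both genotypes, but name different samples.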

Additional observations from a re-analysis of the deposited data

How the results depend on the processing

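The limits were set by 3 samples per genotype. The members were chosen with this contrast known, so how often their rows were called is not read as support. As a description, the log2 difference of summed Nnt ranged from -2.13 to -1.75 over the 18 alternatives. The number of genes called over the whole table was 165, and became 104 with a prior variance without trend, 57 with log2 Gm42418 as a covariate and 56 without Dock3 KO replicates 1 and 2 together, an alternative chosen after seeing the data in which the lone sample is assumed to vary like WT. Leaving out 1 sample gave 100 to 159 genes, with 100 when WT replicate 4 was the one omitted and 102 when Dock3 KO replicate 2 was. The cause was not tested. Of the other redox genes, 0 were called, and 1 without a filter on low values (Ucp3, limma adjusted p 0.0172), 1 with the replicate block (Aldh1l1, 0.00586) and 0 to 1 when 1 sample was left out (Ucp3 without Dock3 KO replicate 1, Aldh1l1 without Dock3 KO replicate 2). The replicate block has 1 residual degree of freedom and gave 127 genes over the table and a log2 difference of -2.01 for summed Nnt. The samples numbered 1 and those numbered 3 correlated at 0.065 and 0.0066 in their deviations from the group means. With so few samples, these values cannot show whether the numbers mark a pairing. After rescaling to the same total, the log2 differences of Txn2, Txnrd2, Prdx5 and Sod2 changed sign to between -0.25 and -0.12. Their distance of 0.04 to 0.16 above the median of all genes is one that such rescaling cannot change. Read against the median, quantile normalization gave 0.06 for Txnrd2, 0.11 for Prdx5, -0.003 for Txn2 and -6.1e-06 for Sod2. The log2 difference of Dock3 was -4.76 and ranged from -5.94 to -3.27, and its limma adjusted p was over 0.05 in 6 of 18 alternatives.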

Other observations

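Genes that produce superoxide or hydrogen peroxide were read as a further group of 12, and none was called (limma with Benjamini-Hochberg adjustment; 3, or 25.0%, had an unadjusted p under 0.05, beside 10.5% of all genes tested). Nox4, an NADPH oxidase that releases hydrogen peroxide, stood at 67.9, 91.5 and 98.4 normalized counts in the WT muscles, against 122, 177 and 169.8 in those of Dock3 KO. Its groups did not overlap, and its log2 difference of 0.85 (standard error 0.24) had a limma adjusted p of 0.198. Xdh, which encodes xanthine dehydrogenase and oxidase, had means of 1648 ± 607 and 953 ± 287 (SD, n = 3 each), with a limma adjusted p of 0.329. The list median was -0.12.

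On the mitochondrial content list, none of 12 genes was called (1, or 8.3%, had an unadjusted p under 0.05, beside 10.5% of all genes tested). The groups did not overlap in 4 (33.3%, beside 16.2% of all genes tested), all 4 higher in Dock3 KO on the deposited scale. Hspa9, a chaperone of the matrix, stood at 3206, 3213 and 3309.8 normalized counts in the WT muscles, against 3489.9, 4991 and 4055 in those of Dock3 KO, a log2 difference of 0.35 with a limma adjusted p of 0.426. Ppargc1a, a coactivator of mitochondrial biogenesis, stood at 895, 882 and 950.1 in the WT muscles, against 830.2, 1117 and 1863 in those of Dock3 KO, where its groups overlapped. Aldh1l1, a cytosolic folate enzyme named after its values were seen, stood at 145, 174 and 123 in the WT muscles, against 657, 68.3 and 552 in those of Dock3 KO, so that replicate 2 was below WT and the others far above it.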
